A study of Mus musculus with 7 samples.

Results

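The 7 genes described here make, carry and use creatine, and they are 7 of the 24354 genes in the deposited expression table. They were chosen by name as the creatine kinases (Ckb, Ckm, Ckmt1 and Ckmt2), the synthesis enzymes (Gatm and Gamt) and the creatine transporter (Slc6a8), after the level of Ckb in fibroblasts and neural stem cells was known. For that reason the levels of Ckb against fibroblasts are given as a description, with no test.

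RNA sequencing measured 7 mouse libraries, of which 5 came from induced neural stem cells (iNSCs), fibroblasts turned towards a neural stem cell state by factors delivered on lentivirus or retrovirus, in neural stem cell medium. The DTA line came from Oct4-CreER x Rosa26-loxSTOPlox-DTA cells, in which a cell that turns on Oct4 under induction makes diphtheria toxin, and its strain label is "Unknown". All 7 libraries carry an age label of E13.5. The pBKSM and pOKSM lines and the mcBKSM clones 1 and 3 came from Oct4-CreER x Rosa26-loxSTOPlox-EYFP fibroblasts of the C57BL/6-Pou5f1 x 129X1/SvJ strain, in which the same switch makes a yellow fluorescent protein. The letters stand for Brn4 (B), Oct4 (O), Klf4 (K), Sox2 (S) and Myc (M), with p taken to mean a vector that carries several factors together and mc vectors with a single factor each. The cNSC library came from cerebral cortex of OG2/ROSA26 embryos at E13.5, and the MEF library from E13.5 embryonic fibroblasts, taken without head and internal organs, of the same strain and Oct4-CreER x Rosa26-loxSTOPlox-EYFP genotype as the pBKSM line. Strain therefore differs between cNSC and the fibroblast-derived lines other than DTA, whose strain is not known, and cannot be told apart from cell origin. Each library was made from a pool of RNA of 2 to 3 biological replicates, so the values hold no spread within a line, and all p-values measure the spread between lines or between the 2 mcBKSM clones. In bulk RNA, fewer cells of a type and less RNA per cell cannot be told apart.

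Creatine is made in a pair of steps. Gatm joins the amidino group of arginine to glycine, which gives guanidinoacetate and ornithine, and Gamt then methylates guanidinoacetate with S-adenosylmethionine. Slc6a8 brings creatine into cells with sodium and chloride. Creatine kinases move phosphate between ATP and creatine, so that phosphocreatine buffers ATP where demand changes quickly. Ckb is the cytosolic form of brain, Ckm that of muscle, Ckmt1 the mitochondrial form of many tissues and Ckmt2 that of heart and skeletal muscle. In brain, synthesis steps and uptake can be divided between cell types.

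The libraries were of similar depth. Steps of 1 fragment in the low values gave estimates of 11600000 (pBKSM) to 16700000 (DTA) fragments, and 10907 to 11429 genes reached 1 FPKM, the number of fragments for each kilobase of a transcript, relative to the size of the library. The summed FPKM of 8 neural stem cell markers was 1113 to 6033 in the iNSC libraries, 2598 in cNSC and 9.90 in MEF. All 8 reached 1 FPKM in each of the 6 neural libraries and 1 did in MEF, where Sox2, Sox1, Pax6, Fabp7, Olig2 and Hes5 were listed at 0. The summed FPKM of 7 fibroblast markers was 1.81 to 34.1 in the iNSC libraries, 0.857 in cNSC and 1485 in MEF, where 6 of the 7 reached 1 FPKM and Lum was listed at 0. These sums go with the labels. Summed neuron markers were at 124 to 276 FPKM in the iNSC libraries, 132 in cNSC and 13.8 in MEF. Map2 made most of the sum in the 6 neural libraries, at 112 to 259 FPKM in iNSCs and 117 in cNSC. Among the iNSC lines, Rbfox3 ran from 0.497 in DTA to 29.7 in mcBKSM clone 1. Syt1 ran from 0.511 in DTA to 46.4 in mcBKSM clone 3. In cNSC these 2 were at 0.0692 and 0.321 FPKM. Oligodendrocyte markers summed to at most 7.07, microglia markers to at most 1.75 and endothelial markers to at most 1.12 FPKM in any library. Pou3f4, the gene of Brn4, was at 24.1 FPKM in the DTA line, 20.0 in pBKSM, 2.26 in pOKSM and 27.2 in cNSC, while both mcBKSM clones and MEF had it listed at 0, so mcBKSM is used here as a name only. How this bears on the creatine genes was not tested.

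Promoter sequences are shown for Ckb, Gatm and Gamt because the levels of these 3 genes followed different patterns over the libraries. Each runs from 250 bases before to 50 bases after the RefSeq start site (build GRCm38.p6), 5′ to 3′ on the gene's own strand, with motif letters in capitals. The Ckb window is chr12:111672289-111672588, the Gatm window chr2:122611228-122611527 and the Gamt window chr10:80260963-80261262, all on the minus strand.
Ckb: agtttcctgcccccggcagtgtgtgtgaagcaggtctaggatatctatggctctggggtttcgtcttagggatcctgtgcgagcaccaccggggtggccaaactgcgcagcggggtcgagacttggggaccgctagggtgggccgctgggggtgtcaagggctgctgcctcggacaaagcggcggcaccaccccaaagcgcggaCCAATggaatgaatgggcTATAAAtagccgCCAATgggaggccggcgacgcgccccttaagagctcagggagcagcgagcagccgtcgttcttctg
Gatm: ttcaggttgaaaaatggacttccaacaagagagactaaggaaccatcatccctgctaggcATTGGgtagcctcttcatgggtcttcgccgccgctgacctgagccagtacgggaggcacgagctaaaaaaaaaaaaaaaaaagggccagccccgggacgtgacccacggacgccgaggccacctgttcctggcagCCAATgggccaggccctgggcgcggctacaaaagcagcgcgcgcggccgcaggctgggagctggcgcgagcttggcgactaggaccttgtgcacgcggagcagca
Gamt: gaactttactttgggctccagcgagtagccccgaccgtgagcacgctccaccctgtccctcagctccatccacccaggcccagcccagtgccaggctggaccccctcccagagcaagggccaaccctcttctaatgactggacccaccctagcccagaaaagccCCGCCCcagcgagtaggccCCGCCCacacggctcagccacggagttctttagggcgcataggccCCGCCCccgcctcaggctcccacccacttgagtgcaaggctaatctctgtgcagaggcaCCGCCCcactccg
The motifs searched on both strands were the TATA box, spelled TATAAA, the CCAAT box, the GC box, spelled GGGCGG, the E-box, spelled CACGTG, and the octamer, spelled ATGCAAAT. No matches in these windows overlap. The Ckb window held the TATA box at -28 and the CCAAT box at -46 and -16. The Gatm window held the CCAAT box at -55 on the gene's strand and, on the other strand, at -190. The Gamt window held the GC box on the other strand at -86, -67, -22 and 38, which print as CCGCCC. Of 32851 promoters of the same length, 13.6% held the TATA box, 37.4% the CCAAT box, 35.7% the GC box, 7.15% the E-box and 1.735% the octamer. The share of G and C was 63% for Ckb, 60.7% for Gatm and 66% for Gamt, against a median of 52.7% over all promoters, and the CpG count was 22, 22 and 14, against a median of 7. Entries were found for 6 of the 7 genes, all but Slc6a8. A match is a description of letters and does not show a binding site.

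Ckb, on chromosome 12 at 111669361 to 111672338 of mm10, was among the most abundant transcripts of every neural library. It was at 3839 FPKM in the DTA line, 7296 in pBKSM, 3677 in pOKSM, 3304 in mcBKSM clone 1, 2764 in mcBKSM clone 3 and 5593 in cNSC, against 0.468 in MEF, where the value rests on about 10 fragments. All 6 neural libraries lay far above the single MEF library. How many other genes split this way was not counted. By rank of FPKM within a library Ckb was 2 in the DTA line, 2 in pBKSM, 4 in pOKSM, 9 in mcBKSM clone 1, 16 in mcBKSM clone 3 and 1 in cNSC, against 11608 in MEF. It made up 0.507% of summed FPKM in mcBKSM clone 3 and 1.23% in pBKSM, the lowest and highest iNSC shares, and 1.24% in cNSC.

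The iNSC lines averaged 4176 ± 1792 FPKM of Ckb (SD, n = 5), with a coefficient of variation of 42.9% and a 2.64-fold range. The ratio to MEF was 8206 in DTA (95% Poisson interval 4415 to 16934, counting error only), 5909 in mcBKSM clone 3 (3179 to 12194) and 11955 in cNSC (6433 to 24671). In order of level, pBKSM exceeded cNSC by 0.38 and cNSC exceeded DTA by 0.54 on the log2 scale, both more than the 0.26 between the mcBKSM clones. DTA and pOKSM (0.06 apart) and pOKSM and mcBKSM clone 1 (0.15 apart) differed by less than the clones did. Against Gapdh, a glycolytic enzyme often used for scaling, the FPKM ratio of Ckb was 4.15 to 6.53 in the iNSC libraries and 8.39 in cNSC. The lead of pBKSM over cNSC in FPKM therefore depends on the scaling. By the ratio to Gapdh (6.53 in pBKSM) and by rank (2 in pBKSM, 1 in cNSC), cNSC was higher. The shares of summed FPKM were close, at 1.23% in pBKSM and 1.24% in cNSC.

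**Figure D1:**
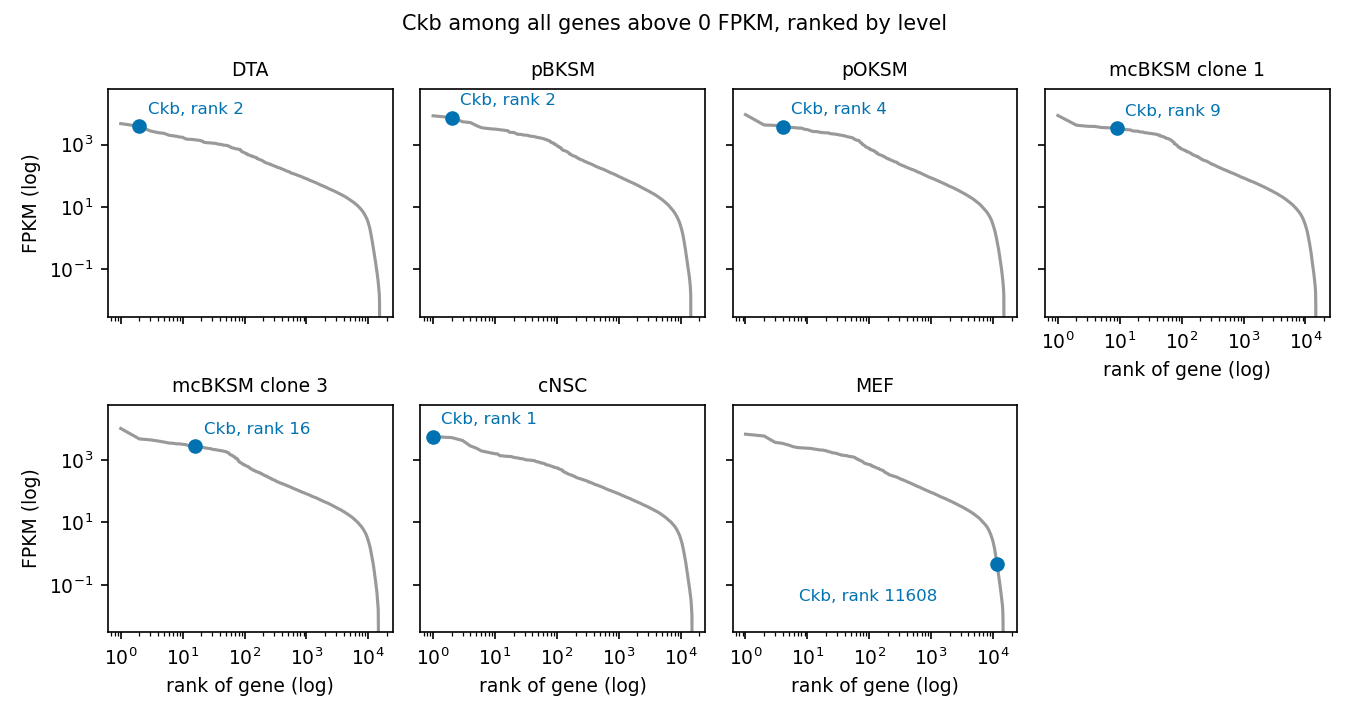
FPKM (log axis) against rank for the expressed genes of each library, with Ckb marked. Ckb stood at ranks 2 to 16 in the iNSC libraries and 1 in cNSC, against 11608 in MEF.

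The other 3 kinases were at or near 0. Ckm, on chromosome 7 at 19404776 to 19422841, was listed at 0 in all 7 libraries, which allows up to 0.166 to 0.238 FPKM at the floor of 3 fragments. Ckmt1, on chromosome 2 at 121357714 to 121363737, was at 0.535 FPKM in DTA (about 13 fragments), 0.182 in pBKSM (about 3) and 0.258 in cNSC (about 6), and was listed at 0 in the other 4 libraries. Ckmt2, on chromosome 13 at 91853387 to 91876885, had about 1 fragment in pBKSM (0.0655 FPKM) and was listed at 0 in the other 6 libraries. None of these 3 genes reached 1 FPKM in any library, so none was tested.

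Ckb thus made up 99.986% or more of the kinase FPKM in each of the 6 neural libraries. The muscle list bears on Ckm and Ckmt2. Of 20 muscle markers, 16 stayed below 1 FPKM everywhere, and their summed FPKM was 3.35 to 6.05 in the iNSC libraries, 2.97 in cNSC and 5.59 in MEF. Ckmt1 overlaps Strc at its end, and Ckm and Ckmt2 each have an annotated antisense gene. Whether fragments were counted by strand is not given in the sources used here, so reads of such partners could not be told apart.

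**Figure D2:**
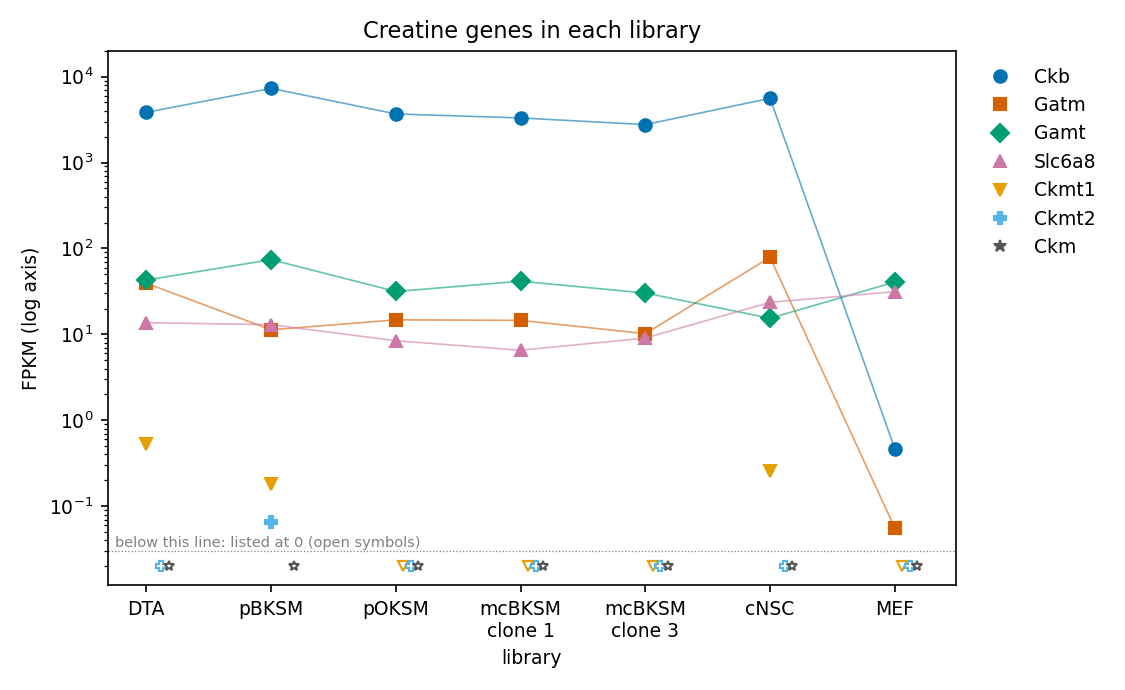
FPKM of the 7 creatine genes (log axis) in the DTA, pBKSM, pOKSM, mcBKSM clone 1, mcBKSM clone 3, cNSC and MEF libraries, with open symbols for genes listed at 0. Ckb lies between 2764 and 7296 in the iNSC lines and at 0.468 in MEF, while Gamt and Slc6a8 stay between 6.53 and 74.1 in all 7 libraries.

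Gatm, the first synthesis enzyme, lies on chromosome 2 at 122594467 to 122611303. It was at 39.4 FPKM in the DTA line, 11.3 in pBKSM, 14.8 in pOKSM, 14.6 in mcBKSM clone 1, 10.2 in mcBKSM clone 3 and 78.9 in cNSC, against 0.0559 in MEF (about 2 fragments). The iNSC lines sat between the single cNSC and MEF libraries, and DTA stood above the other 4. On the log2 scale cNSC exceeded DTA by 0.99 and DTA exceeded pOKSM by 1.36, more than the 0.48 between the mcBKSM clones, and the other iNSC neighbours in order of level were closer than the clones. The ratio to MEF was 704 in DTA (95% Poisson interval 195 to 5824), 182 in mcBKSM clone 3 (50.2 to 1517) and 1411 in cNSC (391 to 11673).

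The difference of iNSCs from MEF for Gatm was 3.997 ± 0.70 (SE) on the log2(FPKM + 1) scale, with all 5 lines higher. Gatm passed the filter of 1 FPKM only through the neural libraries, so it had to differ, and its adjusted p of 0.0170 in limma is given as a description. In a fit with no filter the adjusted p was 0.0222, without pOKSM it was 0.0521, and with a pseudocount of 0.1 FPKM the difference was 6.67. Of the 6 genes other than Ckb, 3 were tested and 1, Gatm, was called, where 16.3% of all 13042 genes tested were called (6.77% higher and 9.55% lower), and for the same reason nothing is read from this count.

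Gamt, the second synthesis enzyme, lies on chromosome 10 at 80258151 to 80261012. It was at 42.9 FPKM in the DTA line, 74.1 in pBKSM, 31.6 in pOKSM, 41.6 in mcBKSM clone 1, 30.3 in mcBKSM clone 3 and 15.4 in cNSC, against 40.6 in MEF. MEF fell within the range of the iNSC lines, 3 of which were above it and 2 below, while cNSC lay below all 5. In order of level, pBKSM exceeded DTA by 0.77 and mcBKSM clone 3 exceeded cNSC by 0.93 on the log2 scale, more than the 0.44 between the clones, and the 4 neighbouring pairs in between were closer than that. The difference between iNSCs and MEF was 0.04 (95% interval -1.16 to 1.24) with an adjusted p of 0.964 in limma, an interval that leaves room for a 2-fold difference either way.

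The ratio of Gatm to Gamt FPKM was 0.917 in the DTA line, 0.153 in pBKSM, 0.468 in pOKSM, 0.3504 in mcBKSM clone 1, 0.337 in mcBKSM clone 3 and 5.12 in cNSC, against 0.00138 in MEF. Gatm exceeded Gamt in cNSC, and Gamt exceeded Gatm in the 5 iNSC lines and in MEF. MEF thus held the transcript of the second step at a level within the iNSC range and almost none of the first.

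Slc6a8, the transporter, lies on chromosome X at 73673150 to 73682502. It was at 13.7 FPKM in the DTA line, 13.0 in pBKSM, 8.44 in pOKSM, 6.53 in mcBKSM clone 1, 9.06 in mcBKSM clone 3 and 23.6 in cNSC, against 31.4 in MEF. All 5 iNSC lines lay below cNSC and below MEF. The iNSC mean was 10.1 ± 3.06 FPKM (SD, n = 5), and the difference from MEF was -1.59 ± 0.40 (SE), with an adjusted p of 0.0523 in limma, which missed the threshold. When each iNSC library was left out in turn, the difference ranged from -1.70 (without DTA) to -1.46. Slc6a8 was called only without DTA, of all settings tried. MEF and cNSC were 0.40 apart on the log2 scale, less than the 0.42 between the mcBKSM clones.

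**Figure D3:**
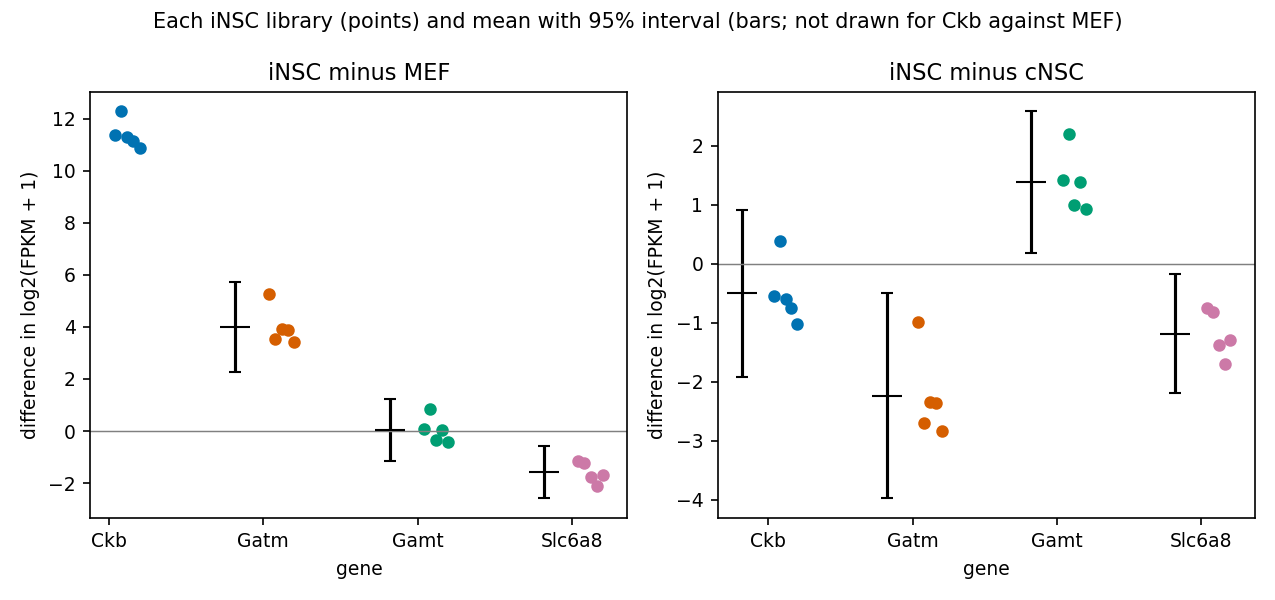
Difference in log2(FPKM + 1) of each iNSC library from MEF (left) and from cNSC (right) as points, with the limma mean and 95% interval as bars for the tested comparisons. Gatm lies above MEF and below cNSC in all 5 lines, Gamt above cNSC in all 5, and Slc6a8 below both in all 5.

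Against cNSC none of the 7 genes was called, where 1.17% of all genes tested were (152 of 13042). Gatm averaged 18.04 ± 12.1 FPKM in iNSCs (SD, n = 5) and 78.9 in cNSC, a difference of -2.24 ± 0.70 (SE) with an adjusted p of 0.273 in limma. Leaving out each iNSC library in turn gave -2.56 (without DTA) to -2.10, and Gatm was called only without DTA. Gamt averaged 44.1 ± 17.7 FPKM in iNSCs and 15.4 in cNSC, a difference of 1.38 (95% interval 0.18 to 2.58) with an adjusted p of 0.323. The difference for Slc6a8 was -1.19 ± 0.40 with an adjusted p of 0.315, and that for Ckb -0.51 (95% interval -1.93 to 0.91) with an adjusted p of 0.696. Summed astrocyte markers were at 483 FPKM in the DTA line, 532 in pBKSM, 183 in pOKSM, 161 in mcBKSM clone 1, 153 in mcBKSM clone 3 and 580 in cNSC, against 50.3 in MEF. Different genes made most of these sums. Aldoc was at 102 to 431 FPKM in the iNSC libraries and 165 in cNSC. Gfap was at 374 FPKM in cNSC, 24.5 in the DTA line and 1.70 in pBKSM, and Gja1 was at 49.9 in MEF. Of the 6 markers, 6 reached 1 FPKM in the DTA line and in cNSC, 5 in pBKSM, 4 in pOKSM, 3 in mcBKSM clone 1, 2 in mcBKSM clone 3 and 1 in MEF, with Gfap and S100b listed at 0 in mcBKSM clone 3, and Aqp4 and S100b in MEF. Their part in the levels of Gatm and Ckb was not tested.

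The pBKSM line had the highest level of Ckb and of Gamt among the iNSC lines. Against the mcBKSM clones, Ckb was at 7296 FPKM in pBKSM and averaged 3034 in mcBKSM, a difference of 1.27 ± 0.22 (SE) with an adjusted p of 0.0898 in limma. Leaving out clone 3 gave 1.14 and leaving out clone 1 gave 1.40. Of all settings tried, Ckb was called only in a fit of these 2 groups alone. Gamt was at 74.1 FPKM in pBKSM and averaged 35.9 in mcBKSM, a difference of 1.04 with an adjusted p of 0.132. The differences for Slc6a8 (0.68) and Gatm (-0.10) had adjusted p of 0.209 and 0.830, so none of the 4 tested genes was called, against 5.82% of all genes. Of the 8 neural stem cell markers, 2 were called higher in pBKSM (Olig2 and Slc1a3) and 2 lower (Sox2 and Sox1). Their summed FPKM was 6033 in pBKSM, of which Fabp7 made 5051, against 1262 in mcBKSM clone 1 and 1113 in clone 3, of which Fabp7 made 642 and 459. The part of these markers in the result was not tested.

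Against pOKSM, the difference for Ckb was 0.99 (95% interval 0.03 to 1.95) with an adjusted p of 0.196 in limma, and that for Gamt 1.21 (0.02 to 2.39) with an adjusted p of 0.197. The differences for Slc6a8 (0.57) and Gatm (-0.36) had adjusted p of 0.367 and 0.563. In this comparison limma called 0 genes (0%), while 3269 had an unadjusted p under 0.05. The comparisons of pBKSM with mcBKSM and with pOKSM share the pBKSM library, and their error comes from the 2 mcBKSM clones.

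In the DTA line, Gatm was at 39.4 FPKM, against a mean of 12.7 in the other 4 iNSC libraries. The difference was 1.57 ± 0.26 (SE) with an adjusted p of 0.0837 in limma. It ranged from 1.48 to 1.65 when each other iNSC library was left out in turn. Of all settings tried, Gatm was called only without pBKSM. The differences for Ckb (-0.04), Gamt (0.05) and Slc6a8 (0.55) had adjusted p of 0.968, 0.963 and 0.427. None of the 4 was called, against 0.355% of 12378 genes. The DTA line differs from the others in genotype and strain label as well, and these cannot be told apart.

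Genes that supply the substrates of creatine synthesis were described beside the members. Of 15 genes of arginine, glycine and ornithine supply, 13 were tested in iNSCs against MEF, and 1 was called higher and 2 lower, where 16.3% of all genes tested were called (6.77% higher and 9.55% lower). The median difference was -0.48, against 0.03 over all genes. Gldc, a subunit of the glycine cleavage system, averaged 32.0 ± 4.67 FPKM in iNSCs (SD, n = 5), against 0.186 in MEF. Arg2, a mitochondrial arginase, averaged 0.149 FPKM in iNSCs, against 2.94 in MEF. Gldc passed the filter only through the neural libraries and Arg2 only through MEF, so both had to differ, and no p is given for them. Odc1, which turns ornithine into putrescine, fell to 110 ± 14.4 FPKM in iNSCs, against 235 in MEF (limma adjusted p 0.0211).

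Of 14 genes of methyl donor supply, 11 were tested and 1 was called higher, where 6.77% of all genes tested were, with a median difference of 0.35. Cbs, which draws homocysteine out of the methyl cycle, was at 47.8 FPKM in the DTA line, 16.1 in pBKSM, 101 in pOKSM, 128 in mcBKSM clone 1, 121 in mcBKSM clone 3 and 5.86 in cNSC, and was listed at 0 in MEF. All 5 lines were above cNSC and MEF. Cbs passed the filter only through the neural libraries, so it had to differ from MEF. By the higher of the iNSC mean and the cNSC level, the first genes of this list were Mat2a, which makes S-adenosylmethionine (150 FPKM in iNSCs, 123 in cNSC), and Ahcyl1 (69.6 in iNSCs, 83.6 in cNSC), and neither was called.

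No gene was called in iNSCs against MEF among 11 tested adenylate and related phosphate enzymes, 6 genes of mitochondrial nucleotide exchange or 6 SLC6 relatives of the transporter, where 16.3% of all genes tested were, with median differences of -0.40, -0.13 and 1.37. Nme2, a nucleoside diphosphate kinase, averaged 629 ± 207 FPKM in iNSCs (SD, n = 5), against 762 in MEF, and Nme1 averaged 230 ± 50.7 in iNSCs, against 307.5 in MEF. These are near copies and their split is uncertain. Slc25a5, which exchanges ADP and ATP across the inner mitochondrial membrane, averaged 683 ± 415 FPKM in iNSCs, against 413 in MEF. Slc6a6, the taurine transporter, averaged 20.65 ± 13.98 FPKM in iNSCs, against 53.8 in MEF. Of the 4 tested muscle markers 1 was called lower, Tnnt2, which was listed at 0 in all 5 iNSC lines, against 1.38 FPKM in MEF. It passed the filter only through MEF, so it had to differ. Against cNSC, 0 genes were called in any of these 6 lists by limma, where 1.17% of all genes were.

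**Figure D4:**
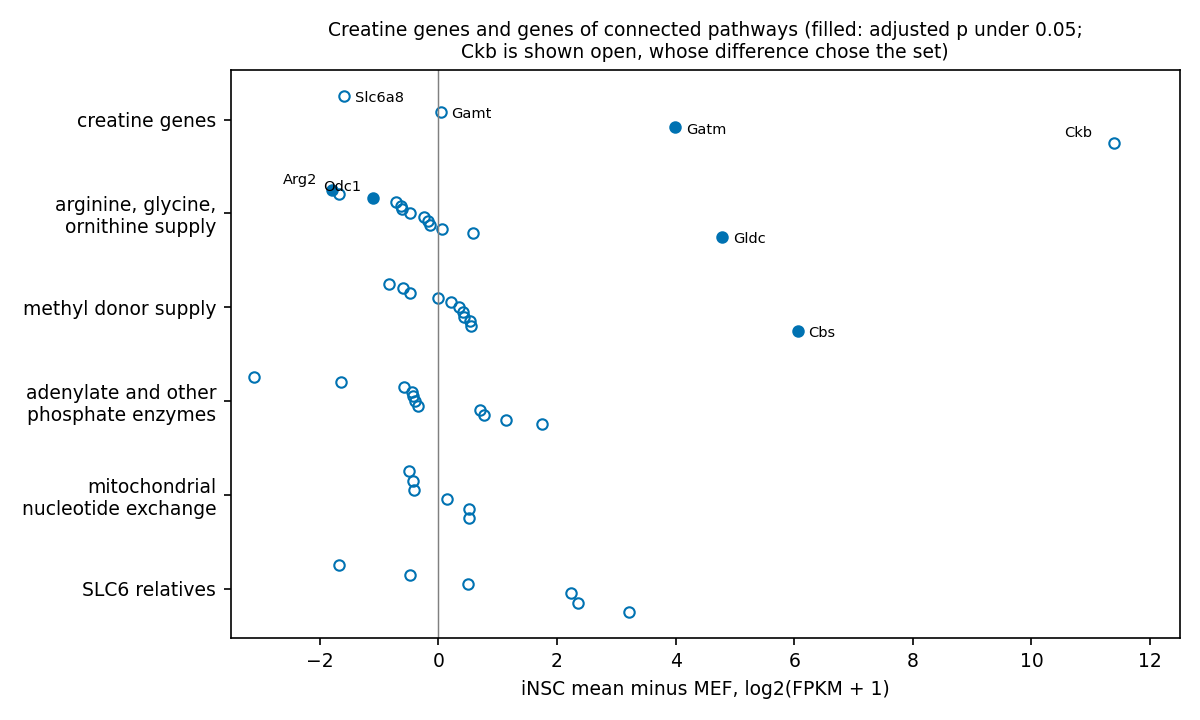
Mean difference between iNSC libraries and MEF in log2(FPKM + 1) for each tested gene of the creatine set and of 5 connected lists, filled where the limma adjusted p was under 0.05. Gldc and Cbs lie at 4.79 and 6.06. Of the filled genes, Gatm, Gldc, Cbs and Arg2 passed the filter through 1 side alone. Ckb is drawn open because it was described without a test.

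Genes most like each member were ranked by Pearson's r of log2(FPKM + 1) over the 7 libraries among 10248 genes, as a description with no test, since the 7 points share 1 library that stands far from the rest. For Ckb they were Nes (0.999), Prex1 (0.997), Ptprf (0.997), Tubb2b (0.997) and Mark1 (0.995). Over the 6 libraries without MEF, an alternative chosen after seeing the data, none of these 5 stayed among the first 5, with Nes at 0.946 and Mark1 at 0.668. The value for Ckb with Gatm was 0.860 over 7 libraries and 0.287 without MEF. Ckb and Gatm were thus both low in MEF and higher in the neural libraries. Among the neural libraries the FPKM of Ckb was highest in pBKSM and that of Gatm in cNSC. By rank within a library, however, Ckb also stood highest in cNSC. With 6 libraries the value of 0.287 does not settle whether the order was shared.

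**Figure D5:**
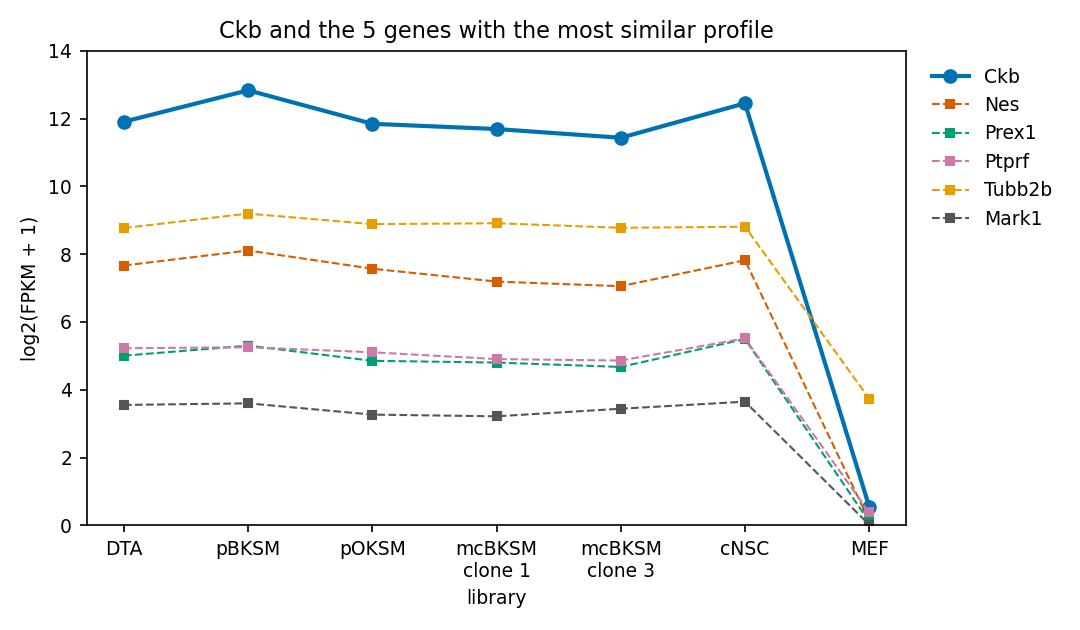
Levels of Ckb and of the 5 genes most like it over the 7 libraries in log2(FPKM + 1). All 6 genes are low in MEF and high in the neural libraries.

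For Gatm the genes most like it were Pak4 (0.993), Pi4ka, Fzd3, Ehd3 and Madd. With a pseudocount of 0.1 FPKM, Pak4 moved to position 22, Pi4ka to 64, Fzd3 to 9 and Madd to 7. Ehd3 alone stayed among the first 5. For Gamt they were Cox6c (0.990), Grb14, Flcn, Fkbp2 and Impa2, and for Slc6a8 Nrp1 (0.987), Pdcd6ip, Peak1, Slc35a3 and Bbx.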

How the data were processed

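Per the submitters' processing notes, the tools were Cufflinks 2.2.1, Cuffnorm, STAR 2.5.2b and R 3.3.2 on build mm10. What each did, and its settings, is not given in the sources used here. The authors deposited FPKM values for 24354 genes in 7 libraries, and all 7 columns matched a sample title. FPKM is relative to library size, so a change in RNA per cell cannot be seen.

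Levels were tested as log2(FPKM + 1), which understates changes of low genes, with limma-trend (limma 3.58.1, R 4.3.3). A gene entered a fit if any of its libraries reached 1 FPKM, with Benjamini-Hochberg adjustment over all of them, and called at an adjusted p under 0.05. The 3 classes (iNSC, cNSC, MEF) formed 1 fit, the 6 labelled groups another, and the 5 iNSC libraries a fit for DTA. Where a group had 1 library, its spread was taken to be that of the replicated group. Another pseudocount, other filters, quantile normalization, fits of only the groups compared and leaving out each library were tried.

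No counts were given. The value of 1 fragment was read from the steps between low FPKM of 1870 genes with 1 transcript; 79.5% to 86.1% of these low values lay within 0.1 of a whole fragment, so fragment numbers are approximate and intervals cover counting error only. The floor is 3 fragments, or 0.0971 to 0.140 FPKM for a 2 kb transcript. Gene positions are from GENCODE M21 (mm10).

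The members and lists were chosen with earlier results of these data known. Named were the 7 members, of each list up to 4 called genes against MEF and up to 2 against cNSC (or up to 2 with the highest level, as examples, where none was called), and the 5 genes most like each member with at least 5 FPKM in a library, leaving out unnamed, small RNA and ribosomal protein genes. A withheld item is not reported here.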

Additional observations from a re-analysis of the deposited data

Results flagged for a closer look

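Among the 5 iNSC libraries, 3 of the 5 genes examined had a library set apart by Dixon's rule. Its gap to the nearest neighbour was more than 0.71 of the whole range (95% critical value for 5 samples). The gaps were taken on FPKM, not on log2(FPKM + 1), where a gap at the top takes a smaller share of the range. On that scale the gaps of Ckb and Gamt fall below 0.71 of the range, and only that of Gatm stays above it. For normally distributed values chance flags about 1 in 20 groups. Ckb in pBKSM was at 7296 FPKM, with a gap of 0.763 of the range. Gatm in DTA was at 39.35 FPKM, with a gap of 0.843. Gamt in pBKSM was at 74.08 FPKM, with a gap of 0.7115, just past the critical value.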

How the results depend on the processing

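No paired analysis was possible because the groups compared share fewer than 2 replicate numbers. Leaving out an mcBKSM clone leaves the fit of 6 groups with no residual degrees of freedom, so it gives values with no test. Genes called ranged from 1147 (without pOKSM) to 3193 (without DTA) for iNSCs against MEF, from 50 to 883 (without DTA) for iNSCs against cNSC, and from 0 to 3951 (without pBKSM) for DTA, when each library was left out in turn. With a pseudocount of 0.1 FPKM, 74 genes were called against cNSC, 7 in pBKSM against pOKSM and 17 for DTA. Without a filter the counts were 618, 374 and 583, and with a filter of 5 FPKM 74, 90 and 16, with 1454 for pBKSM against mcBKSM. With only the groups compared, 2536 were called in pBKSM against mcBKSM. In a fit of pBKSM, pOKSM and the 2 mcBKSM clones, 27 were called in pBKSM against pOKSM. Members called ranged from 0 (without pOKSM) to 2 (without DTA) against MEF, where Ckb is not counted, and from 0 to 1 against cNSC and for DTA when libraries were left out. Without a filter they were 2 in pBKSM against mcBKSM (Ckmt1 and Ckmt2, listed at 0 in both clones) and 1 against pOKSM (Ckmt1). In the fit of pBKSM and mcBKSM alone, 1 was called (Ckb). Differences near 0 turned sign. With each library left out, Gamt in iNSCs against MEF ranged from -0.16 (without pBKSM) to 0.15, Gatm in pBKSM against mcBKSM from -0.34 to 0.14 (without clone 1), Ckb in DTA from -0.22 to 0.25 (without pBKSM) and Gamt in DTA from -0.10 (without mcBKSM clone 3; -0.08 without pOKSM) to 0.32. Ckb in DTA was 0.52 with quantile normalization. Of the 5 genes most like Ckb, 3 were kept with a pseudocount of 0.1 and 0 without MEF. The cause was not tested. Depth limits the MEF values of Ckb and Gatm and all values of Ckm, Ckmt1 and Ckmt2.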

Other observations

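Ak1, a cytosolic adenylate kinase, was chosen here after its values were seen. It was at 69.9 FPKM in the DTA line, 72.6 in pBKSM, 22.1 in pOKSM, 3.43 in mcBKSM clone 1, 1.75 in mcBKSM clone 3 and 44.9 in cNSC, against 52.6 in MEF. The mcBKSM clones were the lowest libraries, and pBKSM exceeded their mean by 4.40 in log2(FPKM + 1). Since these values led to the choice of Ak1, the difference is a description with no test.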
